A study of Mus musculus with 8 samples.

Results

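State 7 is 1 of 42 numbered cell states in a reference map of wild-type mouse embryos between embryonic days 6.5 and 8.5. It was taken as the column headed 7 in the deposited table of state centres, which gives 1 value per state, the level, of each of 712 genes. All 712 genes were described in it against the other 41 states, and states 10, 16, 23 and 4, which are also epithelial, were compared with it one by one. The embryos came from B6D2F1 oocytes injected with sperm of B6/CAST F1 males and were carried by surrogate CD-1 females. They were pooled within a stage, with outer extraembryonic tissue kept where possible, dissociated and profiled with the 10x Genomics 3' single-cell assay. The 8 libraries held 10 embryos at day 6.5, 9 at day 7.0, pools of 7 and 4 at day 7.5, and pools of 10 behind libraries a and b of both day 8.0 and day 8.5. The description of 1 day 8.5 library names day 8.0, which its other labels do not. The table names no library, stage, cell number or depth per state, so no level has a replicate, an error or a known depth, and no difference below was tested. The cells were grouped by their expression, so a difference between state 7 and other states describes the state and is no test of it.

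The gut tube forms when definitive endoderm leaves the primitive streak and inserts into the outer layer of the embryo, where it mixes with cells of the visceral endoderm. The resulting single-layered epithelium carries junction proteins, simple keratins and endodermal transcription factors of the Sox17 and Foxa kinds, and is patterned from the foregut to the hindgut. Visceral endoderm, which surrounds the early embryo, takes up maternal protein and secretes carrier proteins and lipoproteins as the later liver and yolk sac do.

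The markers given for gut endoderm were all high in state 7, and the state is called gut endoderm-like. The sum over the 5 markers was 4.87 in state 7, against 0.081 to 2.60 in the other states, of which state 4 came nearest. State 7 was the only state with all 5 at a level of 0.5 or more, while no other state had more than 2. Of its 10 leading genes against the mean of the other states, 4 were gut endoderm markers and 3 were visceral endoderm markers. The markers were chosen with these values known, so their height in state 7 is a description.

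Trh, the precursor of thyrotropin-releasing hormone, stood at 1.21 in state 7, against 0.0013 to 0.72 (median 0.044) in the other states. The next states were 3, 4 and 8, at 0.72, 0.68 and 0.66, so no state came close. Apela, a secreted peptide that binds the apelin receptor, stood at 0.99 in state 7, against 0.013 to 0.46 (median 0.10) elsewhere, with state 31 the next at 0.46. Epcam, an adhesion molecule of epithelia, was at 1.08 in state 7, against 0.022 to 1.00 (median 0.32), and here state 8 lay only 0.081 below. Trh and Apela thus stood apart from every other state, whereas Epcam belonged to a broad epithelial group with state 7 at its top. Krt19, a simple epithelial keratin, was at 0.92 in state 7 and 0.028 to 1.31 (median 0.088) in the others, 4 of which (states 28, 23, 41 and 38) were higher. Sox17, a transcription factor of endoderm and of blood-forming endothelium, was at 0.67 in state 7 and 0.0033 to 0.78 (median 0.021) in the others. State 14 was the only state above it, and states 32, 4 and 27 followed at 0.50, 0.50 and 0.48.

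The promoters of the 3 markers that were highest in state 7 are shown because state 7 had the top level of each, by wide gaps for Trh and Apela and a narrow one for Epcam. They run from 250 bases before to 50 bases after the annotated start, from RefSeq on GRCm38.p6, with matches to a set of short motifs in capitals. Both strands were searched for the forkhead motif TGTTTAC and for the GATA-factor motif AGATAA. They were also searched for the motif of Sox factors, ACAAAG, and for the E-box bound by basic helix-loop-helix factors, CACGTG. Trh lies on chromosome 6 from 92242061 to 92244650 (minus strand), Apela on chromosome 8 from 65028417 to 65037336 (minus strand) and Epcam on chromosome 17 from 87635979 to 87651129 (plus strand), in GENCODE M21 on GRCm38. The promoter windows are chr6:92244601-92244900 for Trh, chr8:65037287-65037586 for Apela and chr17:87635729-87636028 for Epcam, each printed 5′ to 3′ on the strand of its gene.
Trh: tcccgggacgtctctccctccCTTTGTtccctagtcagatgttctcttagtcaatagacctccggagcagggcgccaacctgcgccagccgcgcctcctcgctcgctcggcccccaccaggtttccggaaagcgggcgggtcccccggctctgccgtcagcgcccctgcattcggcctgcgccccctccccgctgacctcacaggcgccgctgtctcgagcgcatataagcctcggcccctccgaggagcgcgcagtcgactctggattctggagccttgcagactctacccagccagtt
Apela: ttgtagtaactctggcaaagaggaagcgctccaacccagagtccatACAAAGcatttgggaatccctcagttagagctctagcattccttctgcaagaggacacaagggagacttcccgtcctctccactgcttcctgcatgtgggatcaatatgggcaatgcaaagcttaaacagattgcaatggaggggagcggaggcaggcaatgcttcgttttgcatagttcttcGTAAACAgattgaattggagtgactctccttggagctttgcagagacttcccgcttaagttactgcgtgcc
Epcam: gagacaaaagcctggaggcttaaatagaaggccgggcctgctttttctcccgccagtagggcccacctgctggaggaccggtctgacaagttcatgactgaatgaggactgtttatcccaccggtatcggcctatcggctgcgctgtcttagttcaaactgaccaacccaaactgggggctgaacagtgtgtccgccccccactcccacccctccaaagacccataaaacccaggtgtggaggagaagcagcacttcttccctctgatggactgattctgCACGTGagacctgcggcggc
The Trh window held 1 Sox match, at position -229 relative to the start, and was 67% G or C with 28 CpG. The Apela window held a Sox match at position -204 and a forkhead match at position -21, and was 49% G or C with 7 CpG. The Epcam window held 1 E-box, at position 30, and was 57% G or C with 11 CpG, against a median of 52.7% G or C over the whole promoter set. Krt19 (chromosome 11, 100140810 to 100148665) and Sox17 (chromosome 1, 4490931 to 4497354) are named only. Of the 15 genes that were highest in state 7, described below, 13 had promoters, 14 in all. The Sox motif was in 7 of these 14 (50%), against 18.7% of 32851 promoters in the table, and the forkhead motif in 3 (21.4%, Apela, Cpn1 and Foxa1), against 3.65%. The GATA motif was in 0 of 14, against 11.2% of all promoters, and the E-box in 2 (14.3%, Crb3 and Epcam), against 7.15%. In the Foxa1 promoter a forkhead match overlaps 2 Sox matches. A match describes letters in a window and shows no binding.

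Against the mean of the other 41 states, 20 genes (2.81% of the 712) were higher in state 7 by at least 0.5 and 0 (0%) were lower. The median difference over all genes was -0.0090. Across the 42 states, the number of genes higher in this way ran from 2 to 65 with a median of 14.5. State 7 therefore had a middling number of higher genes, and none set it apart by being low. No gene was lowest of all states in state 7, where the count ran from 0 to 102 per state with a median of 4.5. State 7 was also 1 of 13 states with no gene at 0. Its median level over genes, 0.114, was the highest of the 42 states, which ran down to 0.0117. With each state scaled to the same mean the count of higher genes was 5 (Spink1, Trh, Apela, Cldn6 and Ttr), and the other 15 fell short of 0.5 without a change of sign.

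**Figure D1:**
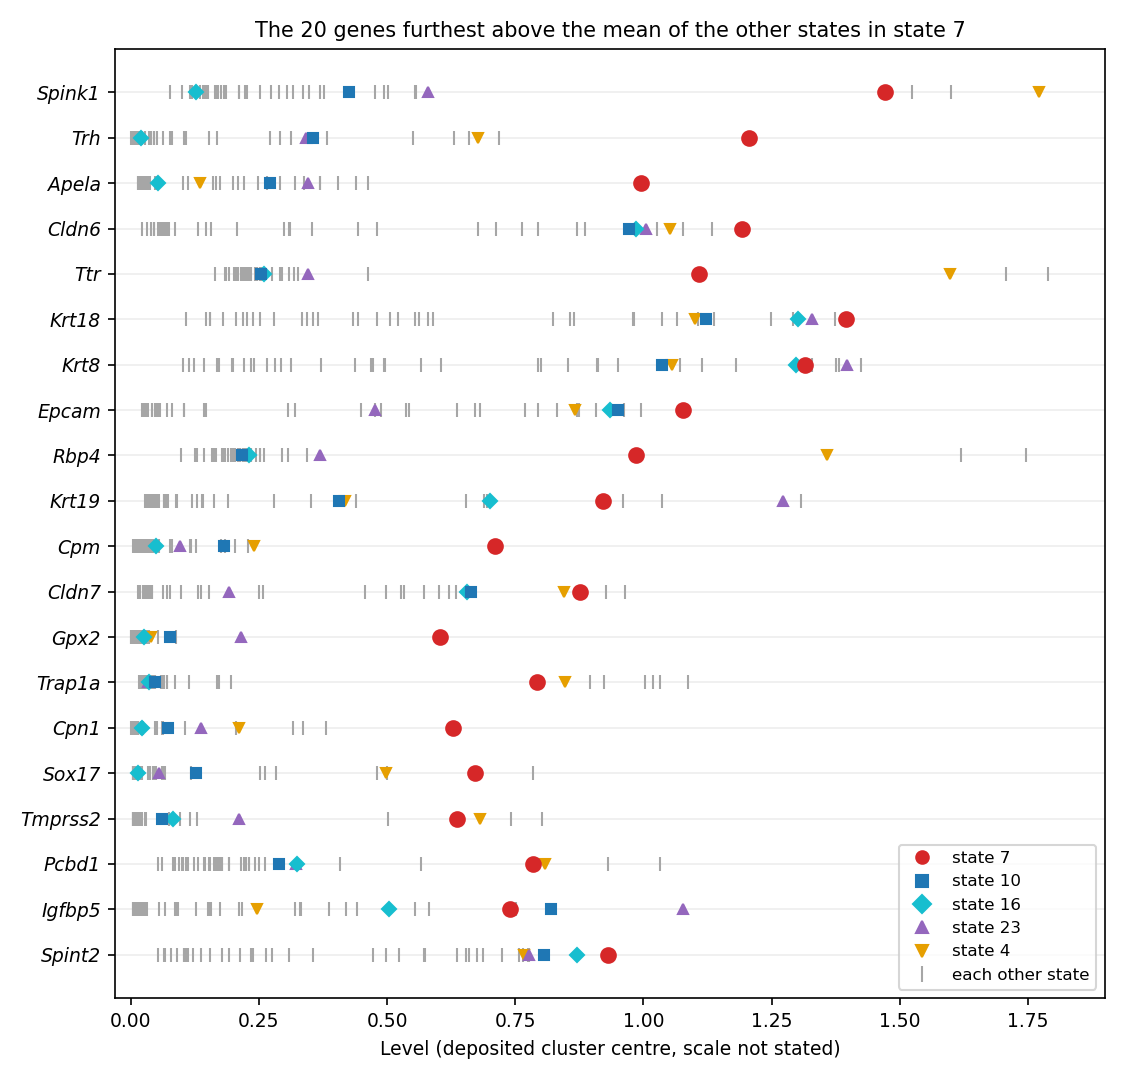
Level of the 20 genes furthest above the mean of the other states, with 1 row per gene and 1 mark per state (state 7 red, states 10, 16, 23 and 4 in colour, all others grey). Trh at 1.21, Apela at 0.99, Cpm at 0.71 and Gpx2 at 0.60 in state 7 lie clear of every other state, while Spink1, Ttr and Rbp4 are higher in 3 others.

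The genes that set state 7 apart by the widest gaps encode secreted peptides, peptidases and an antioxidant enzyme. In all, 15 genes (2.11%) had their highest level in state 7, against 1 to 61 genes per state with a median of 12. Besides Apela and Trh, with gaps of 0.53 and 0.49 to the next state, the widest gaps were those of Cpm, Gpx2 and Cpn1. Cpm encodes carboxypeptidase M, a membrane-bound peptidase (chromosome 10, 117629500 to 117687352). It stood at 0.71 in state 7, against 0.0051 to 0.24 (median 0.036) in the other states, with state 4 the next. Gpx2, a glutathione peroxidase of the gut lining (chromosome 12, 76792333 to 76795554), stood at 0.60, against 0 to 0.22 (median 0.0063), with state 23 the next. Cpn1 encodes the catalytic chain of carboxypeptidase N, a plasma enzyme (chromosome 19, 43956307 to 43986556). It stood at 0.63 in state 7, against 0.00066 to 0.38 (median 0.011), with state 38 the next. No other state reached 0.5 for any of these 5 genes except Trh, which did so in states 3, 4, 8, 19 and 17.

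The other 10 genes highest in state 7 were led by narrow margins. Crb3, a protein of the apical polarity complex, was at 0.55 in state 7 and 0.44 in state 40. Foxa3 and Foxa1, forkhead factors of endoderm, were among them. Foxa3 was at 0.35 in state 7, against 0 to 0.26 (median 0.0089) in the others, where states 4 and 40 came next. Foxa1 was at 0.38 in state 7 and 0.36 in state 23, with a median of 0.0028 over the other states. The claudins Cldn6 and Cldn4, which seal tight junctions, were at 1.19 and 0.52 in state 7, against 1.13 in state 38 and 0.48 in state 16. The protease inhibitor Spint2, the signalling adaptor Grb7, the surface glycoprotein Cd24a and the keratin Krt18 led by gaps of 0.061, 0.052, 0.028 and 0.0030, and Epcam is described above.

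Keratins and several junction genes were higher in state 7, where 2.81% of all genes were. Of the 4 measured keratins, 3 were higher than the mean of the other states (Krt8, Krt18 and Krt19) and the median difference was 0.66, beside -0.0090 over all genes. Krt8 and its partner Krt18 were at 1.32 and 1.40 in state 7, against other-state medians of 0.49 and 0.55, and 5 states exceeded state 7 for Krt8. Krt7 was at 0.59 in state 7, with 2 states above it. Of 19 junction and adhesion genes, 4 were higher (Epcam, Cldn6, Cldn7 and Spint2), 0 were lower and the median difference was 0.30. With each state scaled to the same mean, 0 keratins and 1 junction gene reached 0.5. The junction sum, 8.87 in state 7, took place 2 among the states, against 0.54 to 9.47 in the others. Spint1, the sister inhibitor of Spint2, and the membrane protease Prss8 stood at 0.51 and 0.52, in places 2 and 4 among the states. Tmprss2, another membrane serine protease, was at 0.64 in state 7, with only states 40, 29 and 4 above it. Cdh1, the classical epithelial cadherin, was at 0.54 in state 7 and took place 6, below states 4, 40 and 29 among others, which had 0.65, 0.65 and 0.60. Of 14 mesenchyme genes none was called in either direction, and the median difference was -0.078, with 3 of the 14 above the mean of the other states. These were Fn1, Tagln and Col1a2, at 0.86, 0.35 and 0.13 in state 7 against means of 0.50, 0.19 and 0.11, while Snai2 and Twist1 were at 0.0063 and 0.023 in state 7 against 0.056 and 0.13.

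The visceral endoderm markers had an intermediate sum in state 7, with uneven levels of single genes. Of 17 measured visceral endoderm markers, 3 were called higher in state 7 than the mean of the other states, where 2.81% of all genes were, and 0 lower. Without the limit of 0.5, 14 lay above that mean and 3 below it (Apoa2, Cubn and Slc2a2). Spink1, a secreted trypsin inhibitor, stood at 1.47 in state 7, the highest level of any gene in it, against 0.077 to 1.77 (median 0.22) in the others. Only states 4, 29 and 40 were above it, and state 23, next below, was at 0.58. Ttr, the thyroid hormone carrier, and Rbp4, the retinol carrier, were both highest in states 40, 29 and 4, with state 7 in place 4. The next state below it was at 0.46 for Ttr (state 14) and 0.37 for Rbp4 (state 23). The summed level over the 17 markers was 7.18 in state 7, against 22.1, 19.5 and 16.4 in states 40, 29 and 4 with a median of 1.55 over all other states. Spink1, Ttr and Rbp4, at 1.47, 1.11 and 0.98, contributed most to that sum in state 7. By the sum, state 7 took place 4, between the visceral endoderm-like states and all others. Pcbd1, a cofactor of the transcription factor Hnf1, likewise took place 4, at 0.78 in state 7 and 1.03, 0.93 and 0.81 in states 40, 29 and 4. Trap1a and Rhox5, X-linked genes known as sensitive to DNA methylation, were at 0.79 and 0.82 in state 7, against medians of 0.047 and 0.17, and both took place 8.

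This intermediate place was examined gene by gene, in an analysis chosen after the values had been seen. In 35 genes, states 4, 29 and 40 all lay at least 0.5 above states 10, 16 and 23. State 7 lay between both sets in 31 of the 35, within the range of states 10, 16 and 23 in 4 (Apoa2, Npl, Morc4 and Nrk), and at or above the visceral set in 0. Over all 712 genes it lay between both sets in 77. That place exists only in genes where states 4, 29 and 40 all exceed states 10, 16 and 23. The 35 genes were picked for such a gap, so the share among them cannot be set against all genes. In the 35 genes, state 7 was placed between the mean of states 10, 16 and 23 and that of states 4, 29 and 40. It lay a median of 20.7% of the way from the lower to the higher mean, with a range of -1.11% to 87.3%. The place of state 7 was thus uneven across these genes. Spink1, Trap1a, Rhox5, Ttr and Rbp4 stood above the midpoint, with Clic6, Ctsc, Ctsh and Cited1, 9 genes in all. The lipoprotein gene Apob, at 0.25 in state 7, the uptake receptor gene Cubn, at 0.094, and Apoa4, at 0.13, were near the lower set. In 46 genes states 4, 29 and 40 took the top 3 places, and state 7 took place 4 in 27 of these, state 14 in 6 and state 25 in 5. A centre averages over cells, so these values do not show whether single cells of state 7 held intermediate levels.

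**Figure D2:**
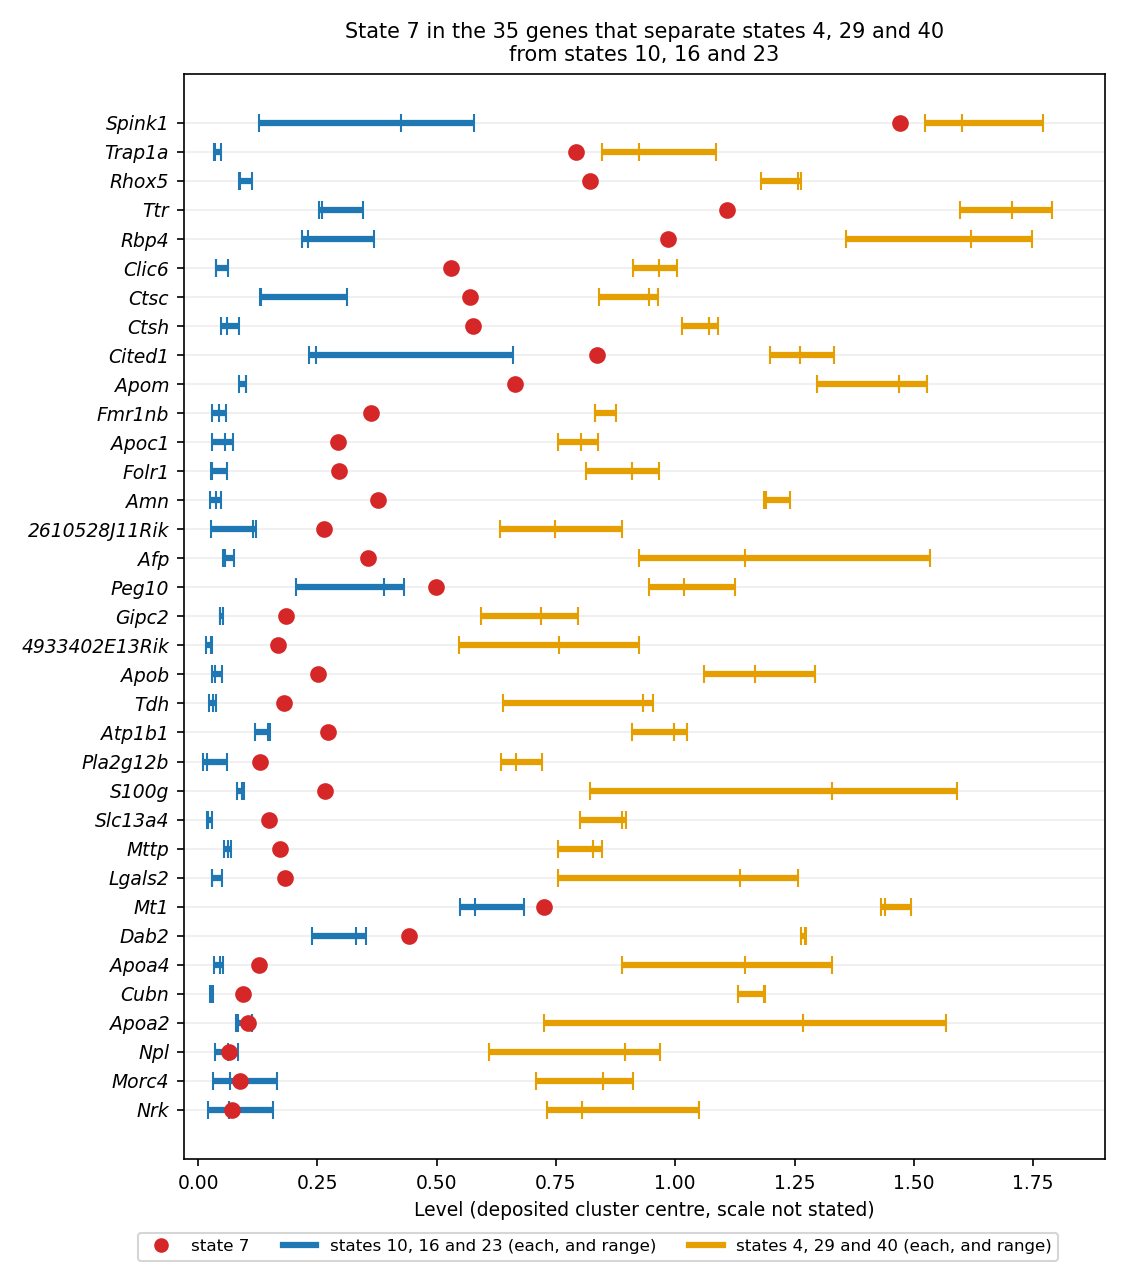
Level of the 35 genes in which states 4, 29 and 40 (orange) all exceed states 10, 16 and 23 (blue) by at least 0.5, with state 7 as a red dot and bars spanning each set of states. State 7 lies between the bars in 31 genes, near the orange bar for Spink1 and Trap1a and near or inside the blue bar for Cubn, Apoa2, Npl, Morc4 and Nrk.

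Transcription factors of endoderm were mostly measured at moderate levels. Of 17 measured factors only Sox17 was called higher, where 2.81% of all genes were, and 0 were lower. The median difference was 0.074, beside -0.0090 over all genes. The 17 factors summed to 4.08, place 3 among the states, where the other states spanned 0.14 to 4.98. Hhex, a factor of anterior endoderm and of blood and endothelial precursors, stood at 0.49 in state 7, against 0.0073 to 0.71 (median 0.034), and took place 3. Foxa2, which marks endoderm, node and notochord, was at 0.47 in place 4, behind states 38 and 23 at 0.84 and 0.74 and state 14 at 0.48. Of 13 primitive streak and nascent mesoderm genes none was called, and 5 lay above the mean of the other states, among them Cyp26a1, Fgf8, T and Lhx1. Eomes and Mixl1, factors of the primitive streak and of endoderm formation, lay below that mean, at 0.086 and 0.030 in state 7, with highest levels of 0.67 and 0.62 in states 3 and 37. Gata6 and Gata4, which act in extraembryonic endoderm and heart, were at 0.28 and 0.14, in places 9 and 10.

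Genes of the anterior and of the posterior gut were both measured at moderate levels. Of 10 foregut genes none was called, where 2.81% of all genes were higher, and 8 lay above the mean of the other states. The median difference was 0.11, beside -0.0090 over all genes. By the foregut sum state 7 took place 7. The mean foregut level was 0.21 in state 7, against 0.29, 0.10, 0.21 and 0.12 in states 10, 16, 23 and 4. Nkx2-5, a factor of heart and pharynx, was at 0.20 in state 7, in place 3 after state 21 at 1.02 and 1 other state, against a median of 0.0073. Otx2, which acts in anterior endoderm and forebrain, was at 0.31 and Hesx1, an anterior homeobox gene, at 0.20, against highest levels of 0.67 and 0.61. Sox2 was at 0.19, near the mean of 0.18, and Irx3 and Prrx2 lay below it, at 0.15 and 0.071 in state 7 against means of 0.27 and 0.20. Of 20 hindgut and posterior genes only Cpn1 was called, where 2.81% of all genes were higher, and 18 lay above the mean of the other states. The median difference was 0.10, beside -0.0090 over all genes. By the posterior sum state 7 also took place 7. The mean posterior level was 0.23 in state 7, against 0.087, 0.31, 0.23 and 0.054 in states 10, 16, 23 and 4. Centring each state on its median shifted the median difference over all genes by -0.060, so small positive differences depend on the scaling. The intestinal homeobox genes Cdx2 and Cdx1 were at 0.57 and 0.32 in state 7, in places 13 and 10, against highest levels of 1.01 and 1.16 in states 31 and 26. Hoxb6 and Hoxc8 were at 0.25 and 0.26 in state 7, in places 8 and 9, against means of 0.11 and 0.14 in the other states. Hoxb9 and Hoxb5os lay below the mean, at 0.12 and 0.042 in state 7 against 0.13 for both. Shh, a signal of gut epithelium and notochord, was at 0.18 in place 3, far below states 23 and 38 at 0.98 and 0.67. No anterior Hox gene of 7 was called, and their median difference was -0.042. The table does not show whether foregut and hindgut genes were in the same cells. Whether counting used strand is not given in the sources used here, so reads of the antisense genes Hoxaas3 and Hoxb5os cannot be told apart from those of their neighbours.

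**Figure D3:**
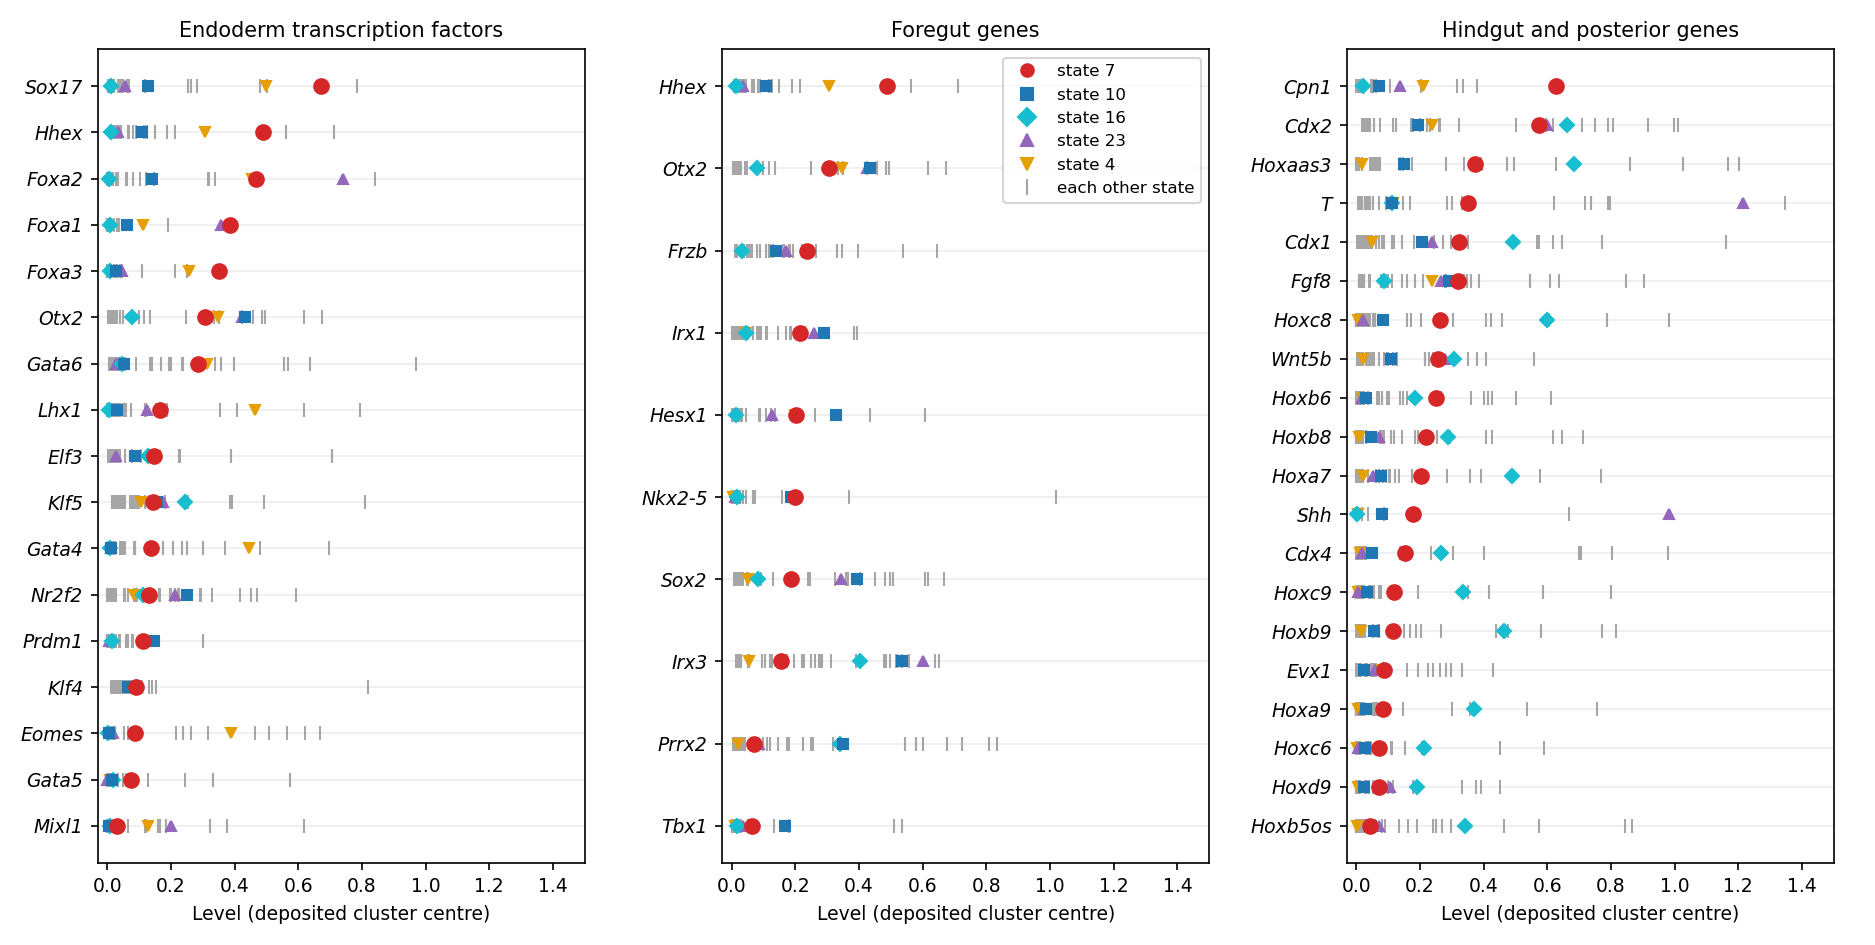
Level of endoderm transcription factors, foregut genes and hindgut and posterior genes, with 1 row per gene and 1 mark per state (state 7 red, states 10, 16, 23 and 4 in colour, all others grey). State 7 is at or near the top for Sox17 (0.67), Hhex (0.49), Foxa1 (0.38), Foxa3 (0.35) and Cpn1 (0.63), and in the middle for Cdx2 (0.57), T (0.35) and most Hox genes.

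In the signalling lists Apela, Trh and Rbp4 were called higher, where 2.81% of all genes were, and no gene was called lower. In the apelin pathway the ligand Apela was high, whereas the other ligand Apln and the receptor Aplnr were low in state 7, at 0.019 and 0.064, against up to 0.52 in state 29 and 0.78 in state 38. Among 5 hormone and secreted peptide genes the sum was highest in state 7, at 2.54 against 0.061 to 1.85, and it rested on Trh and Apela. None of 12 Wnt genes was called, although Sp5, a Wnt-induced transcription factor, was at 0.64 in place 5. None of 11 Nodal and Bmp genes was called either, with the Bmp pseudoreceptor Bambi at 0.64 in place 8. In lists of 12 and 11 genes, a count of 0 lies near the share over all genes. Of 7 retinoic acid genes only Rbp4 was called. The retinoic acid receptor Rarb took place 2 at 0.19 in state 7, with only state 39 above it at 0.34, and Cyp26a1, which degrades retinoic acid, took place 6 at 0.48. The growth factor binding protein Igfbp5 was at 0.74, below states 23, 10 and 21.

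The lowest genes of state 7 relative to the other states included both measured cytoplasmic retinoic acid binding protein genes, and none reached a difference of 0.5. Crabp1 was at 0.18 in state 7, against a mean of 0.50, and Crabp2 at 0.28, against 0.45. State 7 took places 28 and 27 of 42 from the top for them, and state 4 was lower still, at 0.090 and 0.12. Bcat1, a branched-chain amino acid transaminase, was at 0.10 in state 7, against 0.38, and Fst, an activin antagonist, at 0.093, against 0.32. Hand1, Rasgrp2, Fam212a, Glipr2, Hba-a1 and Akr1b3 completed the 10 lowest, with differences of -0.21 to -0.16. Against the median of the other states Hand1 and Fam212a differed by only -0.0040 and -0.032, so their place among the lowest depends on the mean as the reference. Crabp2 differed from that median by -0.088.

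No marker of the other cell types outside the visceral endoderm list was called higher or lower in state 7. Over all genes 2.81% were higher and 0% lower, so the lack of lower markers is no trait of these lists. Some markers lay just below the limit, among them Rhox5, Krt7 and Ifitm1 with differences of 0.496, 0.487 and 0.476. The node and notochord list summed to 1.63 in state 7, place 3 after states 38 and 23 at 15.4 and 7.02, with 8 of 16 members above the mean of the other states. Its highest members in state 7 were T at 0.35, Sox9 at 0.28, Bicc1 at 0.28 and Shh at 0.18, while the node genes Noto and Foxj1 were at 0.010 and 0.068. The primordial germ cell list summed to 2.87, place 2 after 5.11 in state 27. That sum came from Ifitm1, Ifitm3 and Rhox5 at 1.13, 0.62 and 0.82, while the defining Dppa3 was at 0.0035. Ifitm1, Ifitm2 and Ifitm3 are similar genes between which reads can be divided unevenly. The endothelium and blood list summed to 0.94, place 29, with Kdr at 0.024, Pecam1 at 0.0062 and the globin gene Hba-a1, which has a near-identical copy, at 0.31 and place 31. The surface ectoderm list summed to 0.69, place 15, with Tfap2a at 0.0090, and the parietal endoderm list to 2.47, place 6, against up to 12.7 in state 14. Plat, the tissue plasminogen activator and a parietal endoderm marker, took place 2 in state 7 at 0.37, after 0.59 in state 14. The trophoblast list summed to 3.33, place 10, with Krt7, Rhox5 and Cdx2 at 0.59, 0.82 and 0.57 and Elf5 at 0.010. The remaining lists, of streak, epiblast, heart, paraxial, extraembryonic mesoderm and neural markers, took places 15 to 25.

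**Figure D4:**
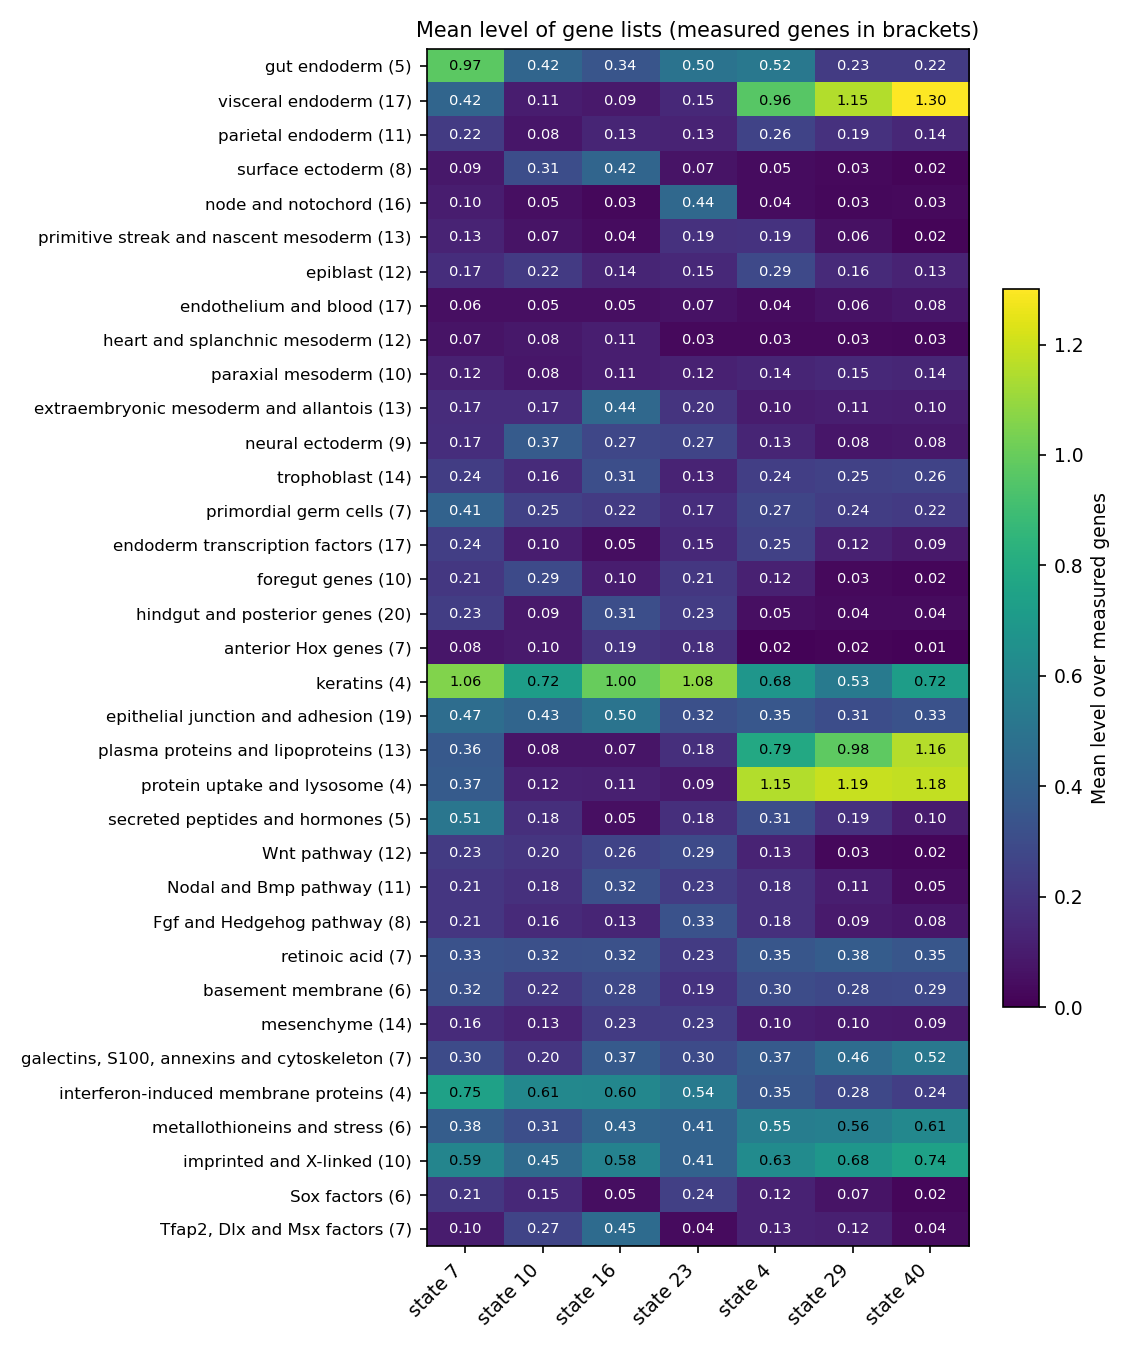
Mean level over the measured genes of each list (number in brackets) in state 7, in states 10, 16, 23 and 4 and in states 29 and 40, with colour and printed value giving the mean level. State 7 has the highest gut endoderm mean (0.97) and a visceral endoderm mean (0.42) between that of states 10, 16 and 23 and that of states 4, 29 and 40.

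State 4 was the state most like state 7 by correlation of gene-centred levels, though not by every measure. Over gene-centred levels of 712 genes, Pearson's r was 0.50 with state 4, 0.41 with state 10, 0.35 with state 29, 0.34 with state 40, 0.33 with state 23 and 0.21 with state 16. It was lowest with states 35 and 33, at -0.39 and -0.35. These values run across genes, which are not independent, and all states share the authors' choice of genes. The order depended on the measure. State 23 was nearest by Spearman's rho (0.40), with state 4 in place 2 (0.39). Without centring, state 10 was nearest (r = 0.82) and state 4 took place 4 (r = 0.71).

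States 10 and 16 had high sums over the surface ectoderm markers, places 2 and 1 of all states. Against state 10, 16 genes (2.25%) were higher in state 7 and 2 (0.281%) were lower, and 640 of the 712 (89.9%) differed by less than 0.25. The higher genes included the endodermal ones above. Spink1 stood at 1.47 in state 7 against 0.43 in state 10, Ttr at 1.11 in state 7 against 0.25 in state 10, and Trh at 1.21 in state 7 against 0.36 in state 10. Both lower genes were Crabp genes, with Crabp1 at 0.18 in state 7 against 0.71 in state 10, and Crabp2 at 0.28 in state 7 against 0.81 in state 10. None of the 19 junction genes was called, with Cldn6, Epcam and Cd24a at 1.19, 1.08 and 1.17 in state 7, against 0.97, 0.95 and 1.15 in state 10. Of the 4 keratins Krt19 was called, and Krt7, Krt8, Krt18 and Krt19 were at 0.59, 1.32, 1.40 and 0.92 in state 7, against 0.33, 1.04, 1.12 and 0.41 in state 10. After scaling of each state to the same mean the split was 7 higher and 3 lower, or 70% higher in place of 88.9%.

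Against state 16, 15 genes (2.11%) were higher in state 7 and 11 (1.54%) were lower. Among the higher genes, Spink1 stood at 1.47 in state 7 against 0.13 in state 16, and Trh at 1.21 in state 7 against 0.021 in state 16. Sp5 was at 0.64 in state 7, against 0.12 in state 16, and Apela at 0.99 in state 7, against 0.054 in state 16. The lower genes included ectodermal ones. Wnt6, a ligand of surface ectoderm, stood at 0.11 in state 7 against 1.06 in state 16, and the membrane protein gene Pmp22 at 0.16 in state 7 against 1.03 in state 16. The homeobox genes Msx1 and Msx2, targets of Bmp signals, stood at 0.43 and 0.24 in state 7, against 0.99 and 0.78 in state 16. Hapln1, Hand1, Anxa2, Mest, Crabp1 and Crabp2 were also among the lower genes.

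State 23 had the highest node and notochord sum after state 38. Against it, 14 genes (1.97%) were higher in state 7 and 16 (2.25%) were lower. Besides Spink1, Ttr, Trh, Apela and Sox17, the higher genes included the epithelial genes Cldn7, at 0.88 in state 7 against 0.19 in state 23, and Epcam, at 1.08 in state 7 against 0.48 in state 23. The lower genes included those of the notochord. T (brachyury), the notochord factor, stood at 0.35 in state 7 against 1.21 in state 23. Shh was at 0.18 in state 7 against 0.98 in state 23, and the Bmp antagonist Nog at 0.033 in state 7 against 0.69 in state 23. The guidance cue gene Slit2, the receptor gene Aplnr and the intermediate filament gene Vim were lower as well, at 0.061, 0.064 and 0.37 in state 7 against 0.79, 0.73 and 1.05 in state 23. Foxa1 and Krt19 were not called, at 0.38 and 0.92 in state 7 and 0.36 and 1.27 in state 23.

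State 4 took place 3 by the visceral endoderm sum. Against it, 9 genes (1.26%) were higher in state 7 and 21 (2.95%) were lower, and 572 (80.3%) differed by less than 0.25, the fewest of the 4 comparisons. Apela had the largest difference among the higher genes, at 0.99 in state 7 against 0.14 in state 4. The interferon-induced membrane protein genes followed, with Ifitm1 and Ifitm3 at 1.13 and 0.62 in state 7 against 0.41 and 0.088 in state 4. Gpx2, Krt19 and the imprinted gene Nnat were at 0.60, 0.92 and 0.58 in state 7, against 0.040, 0.42 and 0.076 in state 4. Among all states, state 7 took places 1, 5 and 19 for these genes, and the mean of the other states for Nnat was 0.49. Uptake and carrier genes made up much of the lower set. Amn, which anchors cubilin in the membrane, was at 0.38 in state 7, against 1.19 in state 4. Mttp, which loads lipids onto lipoproteins, and Apom, a lipoprotein component, were at 0.17 and 0.66 in state 7, against 0.76 and 1.30 in state 4. Afp, the fetal plasma protein, stood at 0.36 in state 7 against 0.92 in state 4, and the metal-binding Mt1 at 0.73 in state 7 against 1.44 in state 4. None of the 17 endoderm transcription factors was called. Foxa1 was at 0.38 in state 7 against 0.11 in state 4, and Foxa2, Sox17 and Foxa3 at 0.47, 0.67 and 0.35 in state 7 against 0.45, 0.50 and 0.26 in state 4. Gata4, Lhx1 and Eomes lay on the other side, at 0.14, 0.17 and 0.086 in state 7 against 0.44, 0.46 and 0.39 in state 4. Centring each state on its median gave 4 higher and 30 lower (11.8% higher), and scaling to the same mean gave 2 and 13 (13.3%), in place of 9 and 21 (30%).

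**Figure D5:**
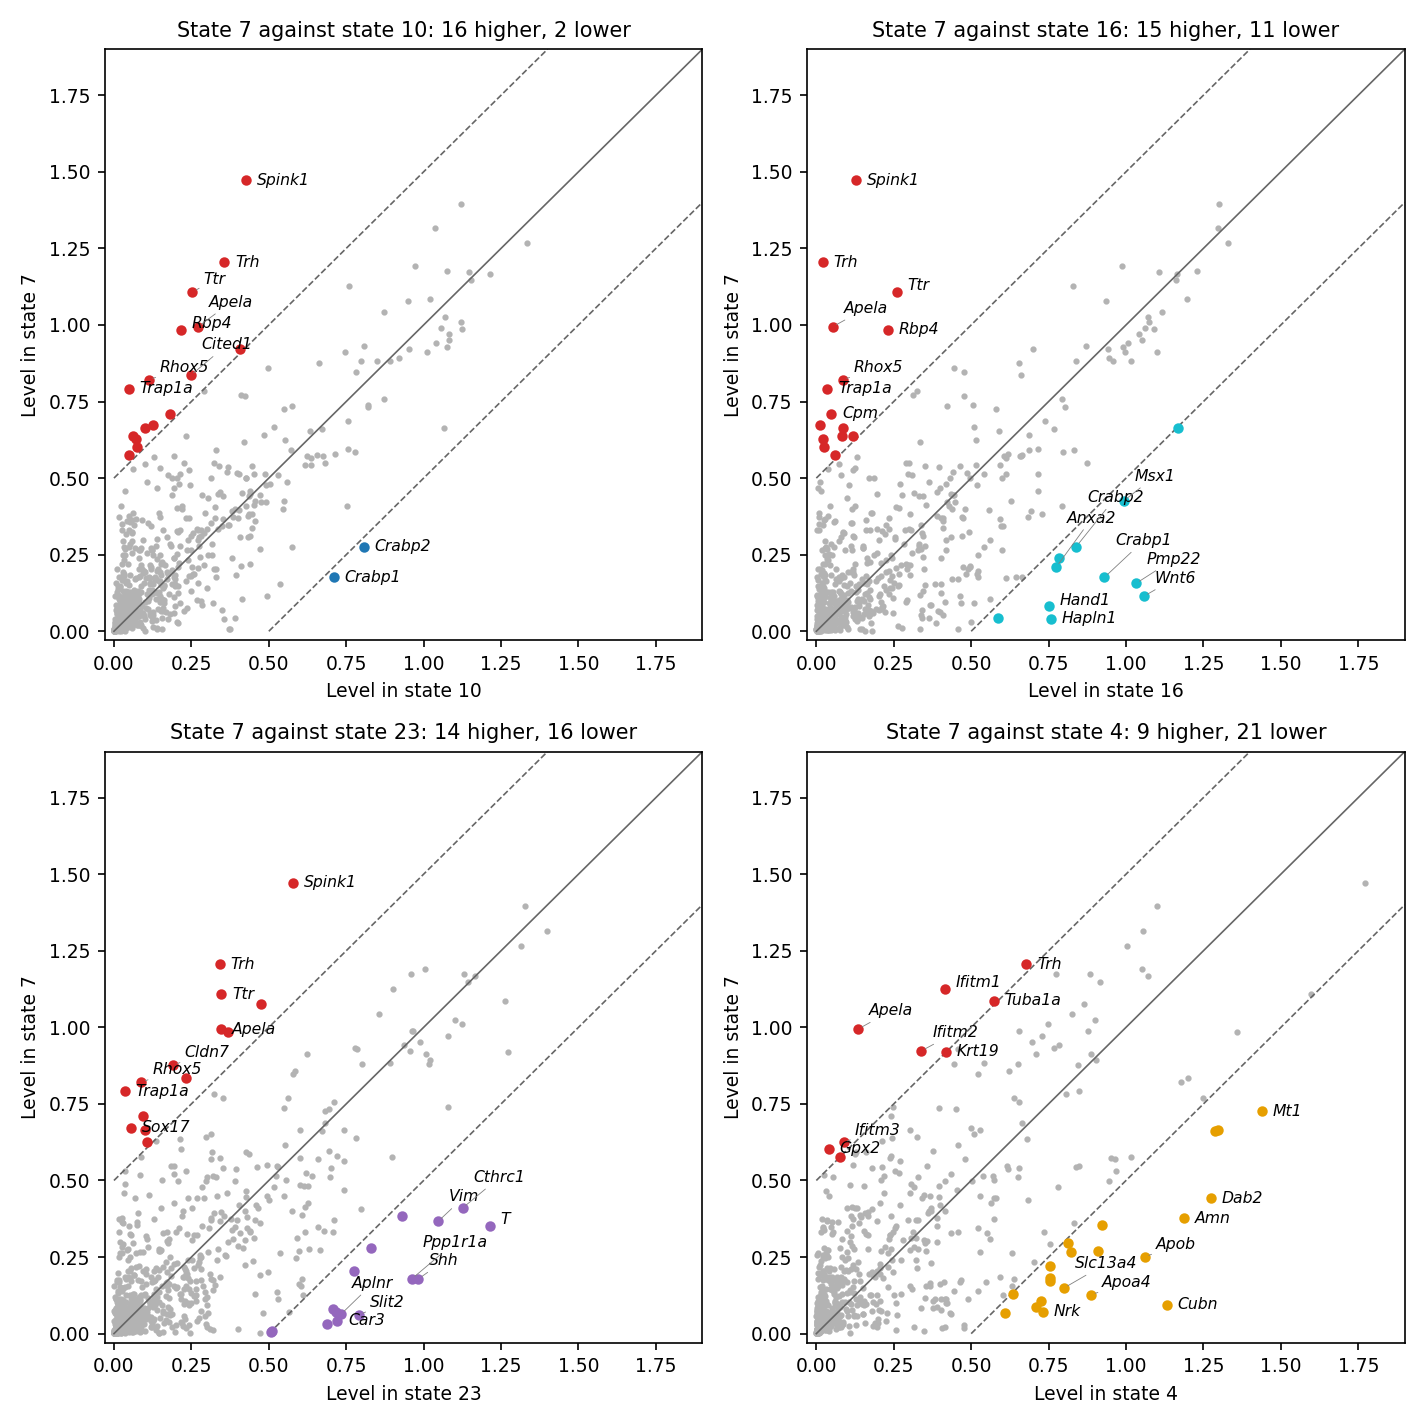
Level of all 712 genes in state 7 (vertical axis) against states 10, 16, 23 and 4 (horizontal axes), 1 point per gene, with dashed lines at differences of 0.5 and coloured points beyond them. The higher and lower genes number 16 and 2 against state 10, 15 and 11 against state 16, 14 and 16 against state 23, and 9 and 21 against state 4.

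Trh and Apela were the 2 genes (0.281%) higher in state 7 in all 4 comparisons, and 0 (0%) were lower in all 4. A further 9 genes were higher in 3 of the comparisons. Of these, Cpm, Rbp4, Rhox5, Sox17, Spink1, Trap1a, Ttr and Apom were higher than in states 10, 16 and 23, and Gpx2 was higher than in states 10, 16 and 4. In all, 10 genes were higher than in each of states 10, 16 and 23, and 7 of them lay within 0.5 of state 4. The exceptions were Trh and Apela, which were higher than in state 4 too, and Apom, which was lower.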

How the data were processed

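Single cells of wild-type embryos were sequenced in 8 libraries at 5 stages. Reads were processed with Cell Ranger (version not given) on build mm10, per the submitters' processing notes. The deposited score is the centre of each numbered cell state for each gene, per the file headers. How the authors normalised, clustered and chose genes, how they treated doublets, and whether the score is a logarithm are not given in the sources used here. Scores were kept as deposited and compared by subtraction, with no fold changes. The 42 columns were taken to pool all libraries, so no sample entered as a replicate and no test or interval was possible.

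A gene was called at a difference of 0.5. Just inside this limit, Spint2 differed from the mean of the other states by 0.529 and, just outside, Rhox5 by 0.496. The text names the 20 genes furthest above and the 10 furthest below that mean, up to 10 genes per direction of a pair, genes highest in state 7 and measured members of 37 lists, 36 of which had a measured gene (263 of 493 genes). Other genes were named after their values were seen. Lists, markers and members were chosen with earlier results of these data known, and many lists share members. Likeness was Pearson's r over levels centred on each gene's mean. Positions came from GENCODE M21, which held 704 of the 712 genes. Alternatives covered the threshold, scaling, reference, gene filter and correlation. Code was checked on simulated tables and run with Python 3.11.15, pandas 2.3.3, numpy 2.4.6, scipy 1.17.1 and matplotlib 3.10.9.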

Additional observations from a re-analysis of the deposited data

How the results depend on the processing

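No paired analysis was possible because the columns carry no library or replicate number. Counts moved with the threshold and the scaling. At a threshold of 0.25, state 7 was higher than the mean of the other states in 80 genes and lower in 2. At that threshold lower genes outnumbered higher ones against state 16 and the opposite held against state 23, the reverse of the balance at 0.5. The higher and lower counts were 59 and 13 against state 10, 53 and 56 against state 16, 54 and 49 against state 23, and 69 and 71 against state 4. Then 7 genes were higher in all 4 comparisons, and of the list members 39 were higher and 1 was lower. At 0.75 the count against the mean was 5, the pairs gave 4 and 0 (state 10), 6 and 3 (state 16), 4 and 3 (state 23) and 1 and 5 (state 4), 0 genes were higher in all 4, and 5 list members were higher.

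With each state centred on its median, 4 genes were higher than in state 4, 1 gene was higher in all 4 comparisons and 195 genes were lowest in state 7, whose median is the highest subtracted. With each state scaled to the same mean, 5 genes were higher than the mean of the others, and 5 list members. Under that scaling the pairs gave 7 higher genes (state 10), 9 higher and 5 lower (state 16), 7 and 10 (state 23) and 2 and 13 (state 4), with 1 higher in all 4, and 8 genes were highest in state 7. Against the next highest state in place of the mean, 1 gene differed by 0.5, and 6 of the genes highest in state 7 led by at least 0.1. The nearest state had a Spearman correlation of 0.402 (state 23) and an uncentred r of 0.817 (state 10). Of the recomputed counts and likeness values, 45 stayed within 1.5 times or kept the nearest state, and 42 did not. The median difference over all genes shifted by -0.060 with centring and -0.014 with scaling. None of 36 named genes changed sign under centring, scaling, the median as reference, or leaving out states 4, 29 and 40. Under scaling, however, 15 of the 36 fell below the limit of 0.5. The 36 were the genes furthest from the mean of the other states and those highest in state 7. Centring moved every difference by -0.060, and the smallest positive one among the 36 was 0.31 (Grb7), so centring could not change a sign. Named genes with small differences, such as Apoa4 at 0.0098 and Sox2 at 0.0023, were not in this check.

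No cell number or depth per state was at hand, so low levels and narrow gaps between states have unknown error. The counts and places are those of 712 genes chosen by the authors, and genes not in the table were not analysed here.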
